A study of Mus musculus with 56 samples.

Results

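The genes described here are 44 mouse genes that drive cell division or mark neural progenitors, taken by name out of 23600 genes that the series measured with a probe set of a single gene symbol. They comprise 21 genes of mitosis, 9 of replication licensing, 4 of the replication fork and nucleotide supply, 4 that govern the step from G1 into S phase, and 6 progenitor genes. A probe set of 1 symbol was found for 43 of them on at least 1 of 3 Affymetrix array types, and Ccnb1 had none on any type. The brightest probe set stood for each gene, and its log2 intensity was compared between each treatment and its own control as the sample titles pair them. Genes below the 40th percentile of mean log2 intensity on an array type were left out as dim, which kept 27 of 43 members on the 3′ arrays, 31 of 38 on the earlier and 42 of 42 on the later of the gene-level array types. The 16 members too dim for testing on the 3′ arrays were Plk1, Aurka, Aurkb, Ttk, Bub1, Bub1b, Cenpe, Cenpf, Kif11, Kif20a, Tpx2, Cdc6, Tyms, Ccne2, E2f8 and Eomes. On the earlier gene-level arrays Ttk, Bub1, Cenpe, Cenpf, Cdc6, E2f8 and Eomes were too dim, and Kif20a, Nusap1, Gins2, Tyms and Ccne2 had no probe set of their own there. Ccne2 was also missing from the later gene-level arrays.

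The study asked how topoisomerase inhibitors change gene expression in neurons, with 56 arrays of cultured cortical neurons from C57BL6 mouse embryos of embryonic day 13 to 15. After 7 days in vitro the cultures received drug or vehicle for 24 or 72 h, and except for the arrays titled 24 h the labels do not say which. On the 3′ arrays were cultures given 300 nM topotecan and others given 3 µM ICRF-193, with 3 treated and 3 vehicle arrays each. The earlier gene-level arrays held a topotecan dose series with 3 vehicle arrays, 2 arrays at 300 nM and 1 each at 3, 30, 150, 500 and 1000 nM. On the later type were 1 µM topotecan (6 treated, 6 vehicle), irinotecan at 10 µM (3 treated, 2 vehicle), and lentiviral shRNA against Top1, against Top2b or scrambled (3 arrays each). They also held single arrays of topotecan for 24 h, topotecan for 24 h followed by washout, DRB at 100 µM with 1 vehicle array, 100 µM hydrogen peroxide and 10 µM paraquat. The irinotecan, 24 h and washout arrays shared 2 vehicle arrays, both oxidants shared another 2, and both shRNAs shared 1 set of controls. Nothing in the labels says whether arrays of a group came from separate cultures, so p-values measure only the spread between these arrays, which may be technical.

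Neurons leave the cell cycle for good when they are born, so in a cortical culture transcripts of division genes come from cells that still divide, such as neural progenitors, glial precursors and fibroblast-like cells of the meninges. Dividing cells switch these genes on in waves: E2F factors with the G1 cyclins raise the licensing and replication genes before S phase, and the genes of mitosis follow in G2 under the MuvB complex with B-Myb and FoxM1, which reads the cell cycle genes homology region (CHR) and CCAAT boxes near their start sites. Radial glia and other progenitors express Sox2, Pax6, nestin and the Notch targets Hes1 and Hes5, and pass through an Eomes-positive intermediate state to neurons. Topotecan and irinotecan are camptothecin derivatives that trap topoisomerase I on DNA, ICRF-193 locks topoisomerase II in a closed clamp, and DRB inhibits the kinase that releases paused RNA polymerase II.

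Start-site sequence is shown for 5 members as examples of the letters these factors are known to read. RefSeq (GRCm38.p6) promoters of 300 bases, 250 before and 50 after the start, were matched for 36 of the 44 members and read on both strands. Ccna2, Aurkb, Kif20a, Tpx2, Mcm4, Gins2, Ccne2 and Hes1 had no entry that matched. The CHR letters TTTGAA were in 11 of 17 mitosis promoters (64.7%), in 1 of 7 licensing promoters, and in 20.2% of the promoters of all 27025 genes. The CCAAT letters were not particular to mitosis: they were in 15 of 17 mitosis, 5 of 7 licensing, 3 of 4 fork and 4 of 5 progenitor promoters, and in 41.1% of all. The E2F letters TTTNNCGC were in 6 of the 7 licensing promoters, in 1 of the 17 mitosis promoters and in 5.93% of all, and the RBPJ letters GTGGGAA, read by the Notch effector, were in 7.25% of all and lay at 2 places in Hes5. Each match is a description of letters and not a binding site. In the first 3 sequences capitals mark CHR and CCAAT letters on either strand, so that TTCAAA and ATTGG are the reverse complements; in Mcm6 they mark E2F letters, of which a pair on opposite strands overlaps, and in Hes5 RBPJ letters. The stretches run 5′ to 3′ along the gene up to the base before its start: Cdk1, the mitotic kinase, at chr10:69352913-69353062 (minus strand); Kif11, the spindle-pole motor, at chr19:37376232-37376381 (plus strand); Ccnb2, a mitotic cyclin, at chr9:70421555-70421734 (minus strand); Mcm6, a helicase subunit, at chr1:128359706-128359855 (minus strand); and Hes5 at chr4:154960673-154960922 (plus strand).
Cdk1: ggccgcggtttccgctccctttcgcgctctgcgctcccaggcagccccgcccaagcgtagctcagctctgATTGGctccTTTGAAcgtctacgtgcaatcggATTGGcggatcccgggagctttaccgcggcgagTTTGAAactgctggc
Kif11: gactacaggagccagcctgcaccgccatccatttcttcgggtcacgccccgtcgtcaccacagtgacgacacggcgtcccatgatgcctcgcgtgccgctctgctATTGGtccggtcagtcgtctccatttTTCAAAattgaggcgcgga
Ccnb2: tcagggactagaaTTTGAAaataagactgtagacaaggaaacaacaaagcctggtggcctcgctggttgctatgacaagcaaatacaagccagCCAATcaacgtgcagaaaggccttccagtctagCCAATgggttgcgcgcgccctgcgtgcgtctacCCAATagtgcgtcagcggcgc
Mcm6: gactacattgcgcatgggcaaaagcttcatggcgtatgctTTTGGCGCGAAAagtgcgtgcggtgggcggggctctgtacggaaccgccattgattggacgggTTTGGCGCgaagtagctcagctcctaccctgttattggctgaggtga
Hes5: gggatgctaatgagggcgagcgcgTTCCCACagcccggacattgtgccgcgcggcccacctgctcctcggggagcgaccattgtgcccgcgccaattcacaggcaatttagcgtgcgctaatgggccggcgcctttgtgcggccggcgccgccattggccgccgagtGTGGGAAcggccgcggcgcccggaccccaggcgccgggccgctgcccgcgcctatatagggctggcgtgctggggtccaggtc

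The examples share letters that the capitals leave out: the 300 bases of Cdk1 also held 2 E2F matches, and those of Mcm6 held 2 CCAAT matches. In Cdk1 the CHR letters began 15 and 71 bases before the start and the CCAAT letters 48 and 80 bases before it. Kif11 had its CHR 19 and its CCAAT box 45 bases before the start, while Ccnb2 had 3 CCAAT boxes at 21, 54 and 87 bases and a CHR at 167. In Mcm6 the E2F letters began 47, 106 and 110 bases before the start, and in Hes5 the RBPJ letters began 83 and 226 bases before it. By gene length the members were short: their RefSeq spans had a median of 14.5 kb, from 1.7 to 61.0 kb, with 0 over 100 kb. Of 13282 genes kept on the later gene-level arrays that had a span, the median was 23.7 kb and 1988 ran over 100 kb.

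Several arrays stood apart on these genes before any treatment was considered. In the dose series, vehicle arrays 1 and 2 and the 1000 nM array carried far more of them than vehicle array 3 and the 6 arrays from 3 to 500 nM. Between the 3 vehicle arrays of that series 26 of 31 members (83.9%) spanned more than 1 log2 unit, against 8.94% of all genes kept, and the widest was Mki67 at 3.83. Between the 2 oxidant vehicle arrays 28 of 42 members (66.7%) spanned more than 1 unit against 16.75% of all genes, the widest being Nusap1 at 1.69. In the other drug experiments few members spanned that much: 0 members spanned over 1 unit among the 6 vehicles of topotecan at 1 µM (2.36% of all genes), the 3 of ICRF-193 or the 2 of irinotecan, and 1 of 27 did, Cdt1 at 1.44, among the 3 of topotecan at 300 nM (5.33%). Their median range was still wider than that of all genes in each of these vehicle groups, at 0.61 against 0.36 for topotecan at 1 µM, 0.20 against 0.11 for ICRF-193, 0.15 against 0.10 for irinotecan and 0.53 against 0.35 for topotecan at 300 nM. Control shRNA arrays had 6 of 42 (14.3%) against 19.13% of all genes. Array number 1 of each shRNA group had a mean intensity of 177.6 to 180.3 against 137.8 to 143.1 for numbers 2 and 3. Markers of neurons were kept for 12 of 12 genes on the 3′ and later arrays and 11 of 11 measured on the earlier ones, and those of astrocytes for 8 of 10 on each type.

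**Figure D1:**
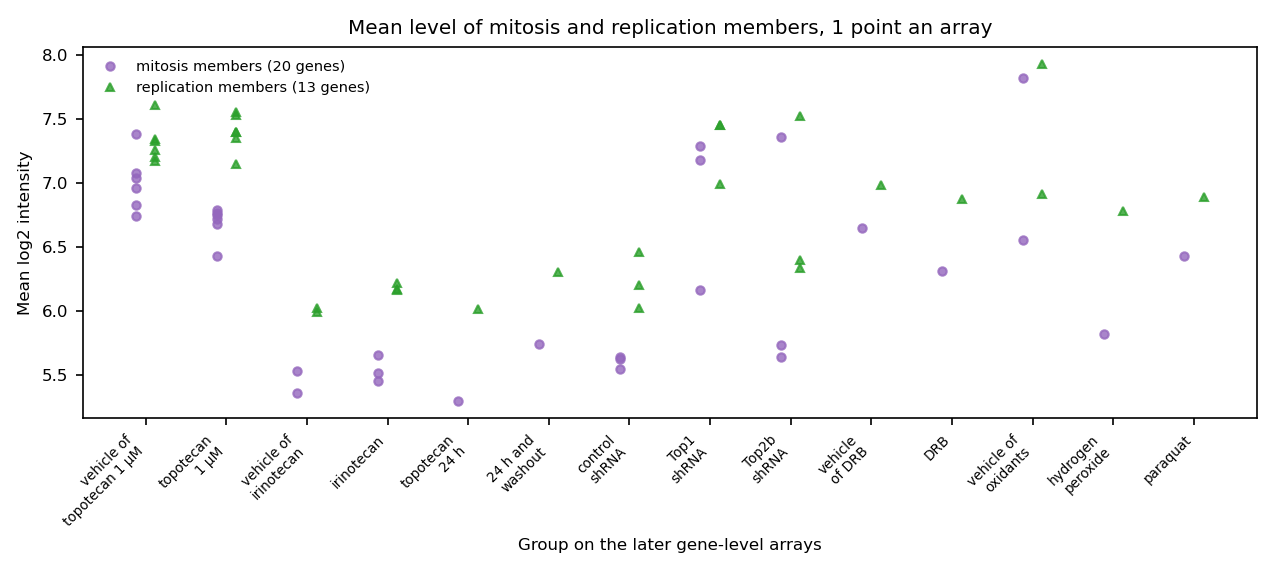
Mean log2 intensity of the 20 measured mitosis members and of the 13 replication members (y axis) on each of the 34 later gene-level arrays, grouped by treatment along the x axis with a point per array. Mean intensities differ between sets of arrays, which were not scaled together, so levels compare within a set only; in the oxidant set the vehicle arrays lie apart from each other, and among the shRNA arrays Top2b shRNA number 1 lies with Top1 shRNA numbers 1 and 3.

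Topotecan at 1 µM gave the fullest view of the members, with 6 arrays against 6. Genes of mitosis were lower as a group, the licensing genes went both ways, and the progenitor genes split, with nestin higher and Hes5 and Eomes lower. Of the 42 members 4 rose and 12 fell (limma, Benjamini-Hochberg adjusted p of 0.05 over all genes kept), where 18.3% of all genes rose and 20.8% fell. Their median difference was -0.10 log2 against -0.01 for all genes, and 28 of 42 were negative. By role, 3 of 10 kinases, cyclins and checkpoint genes and 6 of 10 spindle, kinetochore and cytokinesis genes fell and none of these 20 rose. Of 9 licensing genes 2 rose and 1 fell, of the 4 fork genes and the 3 G1-to-S genes none passed, and of 6 progenitor genes 2 rose and 2 fell. In such bulk samples fewer cells of a type and less RNA per cell cannot be told apart.

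Among the mitotic regulators Plk1, the polo kinase that drives entry into mitosis, read 5.96 to 6.62 with a median of 6.24 on the treated arrays and 6.68 to 7.22 with a median of 6.98 on vehicle. Every treated array lay below every vehicle array, a difference of -0.71 ± 0.12 log2 (SE; adjusted p = 0.000353). Ccnb2 read 7.42 to 7.84 (median 7.73) with topotecan against 7.86 to 8.58 (median 8.21), also without overlap (-0.50 ± 0.11, adjusted p = 0.00231). Its partner kinase Cdk1 read 6.53 to 7.22 (median 7.06) against 7.17 to 7.95 (median 7.52), where the highest treated and the lowest vehicle array just overlapped (-0.55 ± 0.14, adjusted p = 0.00566). The other mitotic regulators moved less. Ccna2, the cyclin of S phase and early mitosis, differed by -0.18 ± 0.12, the kinases Aurka by -0.27 ± 0.11 and Aurkb by -0.14 ± 0.13, and the spindle checkpoint kinase Bub1 by -0.13 ± 0.13; none passed. Cdc20, the activator of the anaphase-promoting complex, differed by -0.03 ± 0.12. Ttk (mean 6.12 against 6.24 on vehicle) and Bub1b (mean 5.58 against 5.66) did not pass.

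Among the spindle and kinetochore genes 6 of 10 fell. Cenpf, a kinetochore and nuclear matrix protein, read 5.35 to 5.86 (median 5.67) against 5.99 to 6.81 (median 6.27), with no overlap (-0.68 ± 0.12, adjusted p = 0.000627). Nusap1, which bundles spindle microtubules, read 5.85 to 6.74 (median 6.62) against 6.78 to 7.58 (median 7.21), again apart (-0.67 ± 0.16, adjusted p = 0.00406). Cenpe, the kinetochore motor, read 6.02 to 6.55 (median 6.33) against 6.56 to 7.34 (median 6.94), with the groups touching but not crossing (-0.58 ± 0.12, adjusted p = 0.00162). Kif11 (-0.46 ± 0.11), the spindle assembly factor Tpx2 (-0.43 ± 0.11) and the proliferation antigen Mki67 (-0.40 ± 0.13, adjusted p = 0.0287) fell too, with groups that overlapped or met. Mki67 was no longer past the threshold without vehicle array 1. Prc1 (-0.28 ± 0.12, adjusted p = 0.0774) and Kif20a (-0.25 ± 0.10, adjusted p = 0.0724), which build the central spindle, and the survivin gene Birc5 (-0.14 ± 0.10) did not pass. Gtse1, a microtubule protein that restrains p53, was the exception in sign at 0.24 ± 0.11 (adjusted p = 0.109).

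The replication genes gave no common direction. Cdc6, which loads the helicase at origins, read 5.88 to 6.57 (median 6.13) against 5.63 to 6.04 (median 5.82), overlapping but higher (0.35 ± 0.12, adjusted p = 0.0271). Of the 6 helicase subunits Mcm6 rose (0.27 ± 0.09, adjusted p = 0.0306) and Mcm5 fell (-0.25 ± 0.09, adjusted p = 0.0427), while Mcm2 (0.16 ± 0.07), Mcm3 (-0.01 ± 0.14), Mcm4 (0.11 ± 0.10) and Mcm7 (-0.01 ± 0.07) did not pass. The 6 subunits form a single ring on DNA. The clamp gene Pcna (0.24 ± 0.09, adjusted p = 0.0563), the thymidylate synthase gene Tyms (0.22 ± 0.10, adjusted p = 0.0915) and both ribonucleotide reductase genes, Rrm1 (-0.02 ± 0.10) and Rrm2 (-0.09 ± 0.14), did not pass. Gins2, a helicase cofactor, and Cdt1, the licensing factor, differed by 0.05 ± 0.15 and 0.04 ± 0.08. Ccne1 (0.11 ± 0.06), E2f1 (-0.01 ± 0.10) and E2f8 (0.14 ± 0.11), the G1-to-S genes, did not pass either.

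The progenitor genes held the largest differences of either sign. Nes, the intermediate filament of progenitors, read 8.32 to 8.84 (median 8.52) with topotecan against 7.25 to 7.92 (median 7.62), a gap with no overlap (0.93 ± 0.11, adjusted p = 1.63e-05). Hes5, a repressor that keeps progenitors undifferentiated under Notch, read 4.77 to 5.47 (median 5.09) against 5.58 to 6.22 (median 5.97), with every treated array lower (-0.85 ± 0.12, adjusted p = 0.000103). Its relative Hes1 went the other way (0.27 ± 0.10, adjusted p = 0.0409), with overlapping arrays and a call lost without any of 8 of the 12 arrays (topotecan 1, 2, 5 or 6, vehicle 1, 3, 5 or 6). Eomes, the factor of intermediate progenitors, read 5.21 to 5.51 (median 5.23) against 5.51 to 5.85 (median 5.70), without overlap (-0.37 ± 0.08, adjusted p = 0.0015). With a mean of 5.385 on this array type, Eomes lay near the limit for dim genes (5.01). Sox2 (-0.18 ± 0.08, adjusted p = 0.099) and Pax6 (0.01 ± 0.09), which keep progenitors in their state, did not pass. A second probe set of Hes5, dimmer than the first, differed by -0.40 ± 0.14 (adjusted p = 0.049 over all probe sets).

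**Figure D2:**
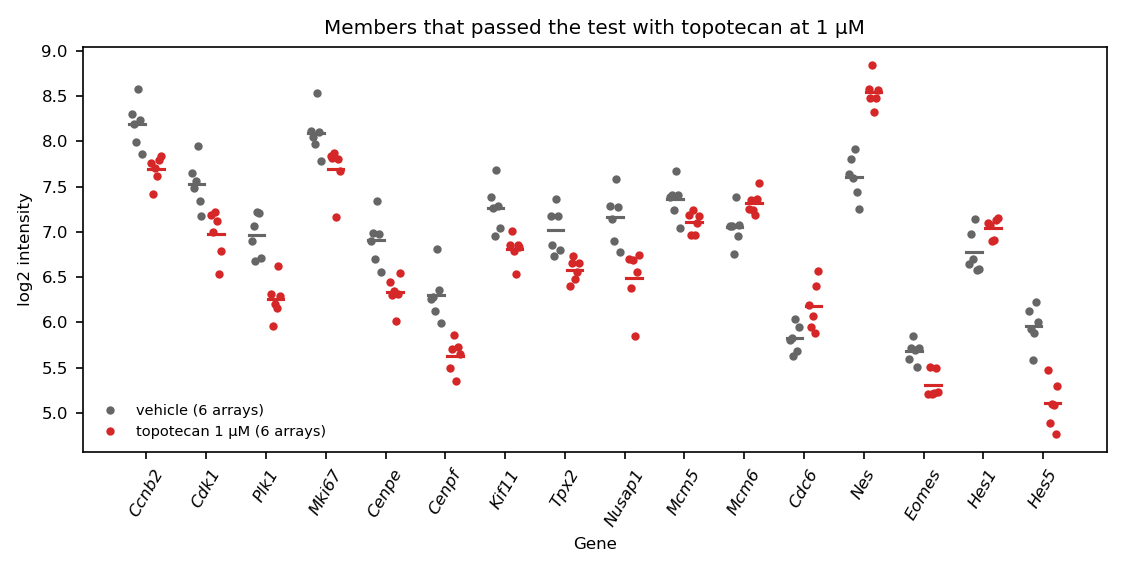
Log2 intensity (y axis) of the 16 members that passed the test with topotecan at 1 µM, on 6 treated (red) and 6 vehicle arrays (grey), 1 point per array with a line at each mean. Nes stands above its vehicle arrays and Plk1, Cenpf, Nusap1 and Hes5 below theirs with no overlap, while Mcm5, Mcm6, Cdc6 and Hes1 overlap.

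Neighbouring genes of the pathway were counted against the same shares of all genes, 18.3% higher and 20.8% lower. Of 46 other mitosis genes 20 fell and 1 rose (median -0.23), led by the ubiquitin-conjugating enzyme gene Ube2c (-0.88 ± 0.10), Ckap2l (-0.68 ± 0.15), Top2a (-0.66 ± 0.11), the topoisomerase II of dividing cells, and Dlgap5 (-0.64 ± 0.09). Of 33 other replication genes 4 rose and 4 fell, among them the primase subunits Prim1 (0.34 ± 0.09) and Prim2 (-0.50 ± 0.11). Of 12 other G1 genes 5 rose and 0 fell, with the D-type cyclins Ccnd3 (0.60 ± 0.11) and Ccnd1 (0.52 ± 0.08) and Myc (0.39 ± 0.05) at the top. Among 18 inhibitor genes 6 rose, including the stress gene Gadd45b (1.00 ± 0.12) and the CDK inhibitor Cdkn2b (0.69 ± 0.11), and 3 fell, including Gas1 (-0.77 ± 0.12). Other progenitor genes split as 7 up and 7 down of 28, from Slc1a3 (-1.04 ± 0.06), a glutamate transporter that radial glia share with astrocytes, and Id3 (-0.98 ± 0.12) to Tead2 (0.59 ± 0.09). Astrocyte markers fell for 7 of 8 (median -1.19), and their summed intensity was 1805 to 1888 against 3794 to 4254 on vehicle. Neuron markers fell for 9 of 12 (13737 to 17799 against 16860 to 21558), and of 7 fibroblast and meninges markers 1 rose and 2 fell. The part of these cells in the members' differences was not tested.

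Most of the mitotic calls outlasted each left-out array. With any of the 12 arrays left out, the calls for Plk1, Ccnb2, Cdk1, Cenpe, Cenpf, Kif11, Tpx2, Nusap1, Nes, Hes5 and Eomes each stayed past the threshold, whereas Cdc6, Mcm5 and Mcm6 lost theirs without several of them. The count of members that rose was less firm: it was 1 without topotecan array 5 or 6 or vehicle array 3 or 5, 2 without topotecan 2, 6 without topotecan 4 and 8 without vehicle 4, and quantile normalization gave 8 higher and 10 lower.

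Irinotecan at 10 µM, with 3 treated arrays against 2, showed nestin and Tyms higher whichever array was left out. Of 20 mitosis genes 3 passed the threshold, a smaller share than that of all genes. Of the 42 members 8 rose and 2 fell, beside 16.5% of all genes that rose and 11.7% that fell, and the members' median was 0.13 against 0.07 for all genes. The treated arrays read 6.44, 6.54 and 6.74 for Nes and the vehicle arrays 5.68 and 6.01, so every treated array was higher (0.73 ± 0.13, adjusted p = 0.007). Tyms, which makes thymidylate for DNA, read 6.55, 6.56 and 6.52 against 5.76 and 6.08, again with no overlap (0.62 ± 0.10, adjusted p = 0.00532). In the fork and nucleotide group 3 of 4 fork and nucleotide genes rose, where Rrm1 (0.29 ± 0.09, adjusted p = 0.0478) and Rrm2 (0.32 ± 0.10, adjusted p = 0.0472) joined Tyms, and Pcna (0.35 ± 0.14, adjusted p = 0.0984) did not. Sox2 (0.42 ± 0.13), Gins2 (0.30 ± 0.09), Prc1 (0.32 ± 0.08) and the checkpoint kinase gene Bub1b (0.32 ± 0.08) also rose. Bub1b read 5.19, 5.07 and 5.12 against 4.76 and 4.85, close to the limit for dim genes on this array type (5.01).

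Hes5 fell here too, reading 5.04, 5.52 and 5.13 against 5.77 and 5.64, and each treated array lay under both vehicles (-0.48 ± 0.15, adjusted p = 0.0491). Its second, dimmer probe set did not share this (0.16 ± 0.13), and in the fit over all probe sets the first one did not pass either (adjusted p = 0.118). Tpx2 was the other member to fall (-0.28 ± 0.08, adjusted p = 0.0361). Mki67 (0.01 ± 0.14), Ccna2 (-0.01 ± 0.13), Cdk1 (-0.13 ± 0.16) and Plk1 (0.09 ± 0.07) did not pass. In the replication list outside the members 7 of 33 rose and 0 fell, with Prim1 at 0.97 ± 0.11 and Ezh2, a chromatin writer made in dividing cells, at 0.69 ± 0.07; of the other mitosis genes 1 of 46 rose and 1 fell. Astrocyte markers fell for 3 of 8, with sums of 2038 to 2061 against 2300 to 2635, and their part was not tested. Only Nes and Tyms kept their calls whichever of the 5 arrays was left out: the count of 10 became 5 without irinotecan array 2, 3 without irinotecan 3 or without either vehicle array, and 4 with the array number as a block.

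Since the doses of the camptothecin derivatives differ, their values stand side by side without comparison. Nes differed from vehicle by 0.93 ± 0.11 with topotecan at 1 µM and by 0.73 ± 0.13 with irinotecan at 10 µM, and Hes5 by -0.85 ± 0.12 and -0.48 ± 0.15. For Plk1 the pair of values was -0.71 ± 0.12 and 0.09 ± 0.07, for Cenpe -0.58 ± 0.12 and -0.18 ± 0.09, for Tyms 0.22 ± 0.10 and 0.62 ± 0.10, and for Tpx2 -0.43 ± 0.11 and -0.28 ± 0.08. The vehicle levels of Mki67 differed between the experiments, whose arrays were not scaled together. It read 7.78 to 8.53 on the vehicles of topotecan and 5.73 and 6.13 on those of irinotecan.

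On the 3′ arrays Hes5 was the only member of the 27 tested that passed with topotecan at 300 nM, and it was lower. Hes5 read 8.07, 7.83 and 7.53 with the drug and 8.99, 8.95 and 8.70 on vehicle, so that all 3 treated arrays were lower (-1.07 ± 0.17, adjusted p = 0.0184). Its second probe set gave -0.94 ± 0.18 (adjusted p = 0.045 over all probe sets). Thus 0 rose and 1 fell, beside 1.3% of all genes that rose and 3.1% that fell. An unadjusted limma p under 0.05 was found for 4 members, beside 2356 of all 10916 genes. The median was -0.05 against 0.06 for all genes. The Hes5 call was lost without topotecan array 2 or 3 or vehicle array 2. Nusap1 read 6.99, 7.10 and 6.75 against 7.60, 7.21 and 7.59, below vehicle throughout but not past the threshold (-0.52 ± 0.16, adjusted p = 0.118). Pax6, at 7.73, 8.04 and 7.57 against 8.81, 8.11 and 8.26, likewise lay lower without passing (-0.61 ± 0.21, adjusted p = 0.16). Mki67 spanned 7.09 to 8.07 among the vehicles alone and differed by -0.47 ± 0.33. Of 8 astrocyte markers 4 fell (median -0.76), with sums of 22682 to 28558 against 39285 to 45595, and in the wider progenitor list Slc1a3 (-1.26 ± 0.15) and Id3 (-1.04 ± 0.19) fell of 25, while 0 of 23 other mitosis genes passed in either direction, with 2 at an unadjusted p under 0.05.

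ICRF-193, which acts on topoisomerase II, shared the fall of Hes5 in arrays of its own with separate controls. Hes5 read 7.81, 7.78 and 8.03 against 8.43, 8.44 and 8.76, with no overlap (-0.67 ± 0.10, adjusted p = 0.00499), and its second probe set differed by -0.36 ± 0.09 (adjusted p = 0.074 over all probe sets). Gtse1 read 6.95, 6.90 and 7.03 against 6.58, 6.69 and 6.72, all higher (0.30 ± 0.05, adjusted p = 0.00929). The helicase subunits Mcm7 (0.14 ± 0.04, adjusted p = 0.0499) and Mcm2 (-0.18 ± 0.05, adjusted p = 0.0494) moved in opposite directions just inside the threshold. That made 2 higher and 2 lower of 27, beside 8.29% and 10.3% of all genes in the same fit without a block. Mki67 read 7.17, 7.17 and 7.08 against 7.73, 7.78 and 7.16, low on vehicle array 3 as well, and did not pass (-0.42 ± 0.15, adjusted p = 0.09). With the array number as a block, which the check of the arrays bore out for this comparison, 1 rose and 4 fell: Gtse1 rose, and Hes5, Mki67 (adjusted p = 0.0271), Pax6 (adjusted p = 0.0184) and Mcm5 (adjusted p = 0.0471) fell. Without any of the 3 treated arrays or vehicle array 2 the count was 2, Gtse1 and Hes5, and without vehicle array 3 it was 6.

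Around these members 10 of 25 other progenitor genes fell and 1 rose with ICRF-193, with Id3 (-0.62 ± 0.13), Lhx2 (-0.51 ± 0.04), Fabp7 (-0.44 ± 0.08) and Emx2 (-0.43 ± 0.05) leading. Lhx2 and Emx2 pattern cortical progenitors and Fabp7 is a lipid carrier of radial glia. Of 23 other mitosis genes 4 rose and 0 fell, led by the centromere histone gene Cenpa (0.44 ± 0.05) and Ube2c (0.43 ± 0.05). Of 17 inhibitor genes 4 rose and 0 fell: Cdkn2b (0.51 ± 0.15), Cdkn1a (0.49 ± 0.10), which encodes p21, Btg2 (0.30 ± 0.07) and Ccng2 (0.20 ± 0.06). Astrocyte markers fell for 7 of 8 (median -0.37), with sums of 23727 to 26321 against 31983 to 35651, and their part was not tested. The difference between the responses to 300 nM topotecan and to ICRF-193 was tested directly by limma. That fit took 1 spread per gene for both experiments. The median SD of all genes among vehicle arrays was 0.185 for topotecan and 0.06 for ICRF-193. In either direction 0 of 27 members passed, beside 1.19% of all genes higher and 2.41% lower. An unadjusted p under 0.05 was found for 1 member, beside 1978 of all 10916 genes. For Hes5 that difference was -0.40 ± 0.21 (adjusted p = 0.352) and for Nusap1 -0.66 ± 0.18 (adjusted p = 0.0745); without topotecan vehicle array 2 Nusap1 passed (-0.78 ± 0.16, adjusted p = 0.0333).

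**Figure D3:**
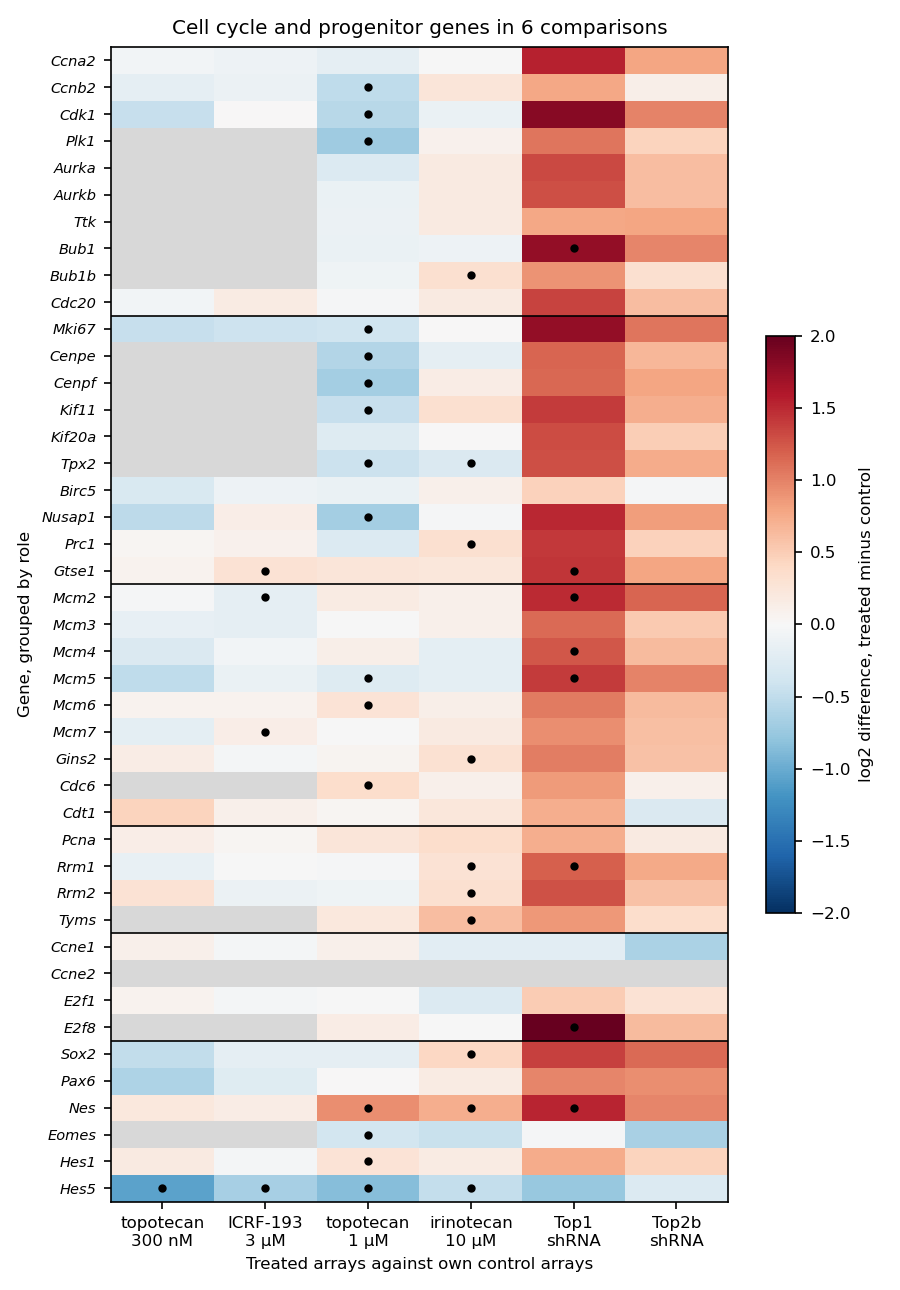
Log2 difference from control for the 43 measured members (rows, by role) in 6 comparisons (columns), on a colour scale from -2 (blue) to 2 (red); dots mark those that passed limma at an adjusted p of 0.05, and grey cells were too dim or not measured. Hes5 is blue with dots in all 4 drug columns, and the Top1 shRNA column is red for 39 of 42 members with 8 dots.

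With shRNA the targeted genes come first. Top1 read 7.62, 8.39 and 8.29 on the Top1 shRNA arrays against 8.98, 8.46 and 8.55 with control shRNA, lower throughout but not past the threshold (-0.57 ± 0.26, adjusted p = 0.193). Top2b read 8.62, 6.87 and 6.80 on the Top2b shRNA arrays against 9.30, 8.39 and 8.17, where array 1 overlapped the controls (-1.19 ± 0.47, adjusted p = 0.22). Each array lies below the control of its own number.

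Top1 shRNA arrays carried more of nearly every division gene. Of the 42 members 8 rose and 0 fell, beside 6.08% of all genes that rose and 5.79% that fell. Positive differences were seen for 39, and the median was 1.18 against -0.02 for all genes. Groups did not overlap for 30 members, beside 3993 of all 13308 genes. An unadjusted limma p under 0.05 was found for 30 members, beside 3628 of all genes. E2f8, an atypical E2F that represses its own class late in S phase, read 6.52, 6.75 and 8.00 against 4.36, 5.25 and 5.32 (2.11 ± 0.43, adjusted p = 0.0148). The lowest of its Top1 shRNA arrays stood more than a log2 unit above the highest control. Nes read 8.45, 7.72 and 8.00 against 6.86, 6.53 and 6.22, also with no overlap (1.52 ± 0.30, adjusted p = 0.0135). Bub1 read 6.66, 6.09 and 7.48 against 5.01, 5.05 and 4.90, controls that hardly varied (1.75 ± 0.48, adjusted p = 0.0409). Gtse1 (1.44 ± 0.32), the helicase genes Mcm2 (1.49 ± 0.38), Mcm4 (1.25 ± 0.27) and Mcm5 (1.39 ± 0.34), and Rrm1 (1.20 ± 0.33) completed the 8. Differences as large did not pass for Cdk1 (1.82 ± 0.56, adjusted p = 0.0627), Mki67 (1.75 ± 0.69, adjusted p = 0.129) and Ccna2 (1.54 ± 0.50, adjusted p = 0.0748), whose arrays varied more. Hes5 (-0.75 ± 0.71), Ccne1 (-0.20 ± 0.23) and Eomes (-0.02 ± 0.31) were the 3 members with a negative sign.

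Since array number 1 of each group differed in mean intensity from numbers 2 and 3, each Top1 shRNA array was also set against the control of its number. The median over the 42 members was 1.31 for number 1, 0.66 for number 2 and 1.48 for number 3, with 39, 38 and 40 positive. For Top2b shRNA the medians were 1.49, 0.19 and 0.19, with 37, 28 and 30 positive. Ccna2 shows it plainly: the Top2b shRNA arrays read 8.92, 6.98 and 6.68 against 6.73, 6.87 and 6.62, high on array 1 alone, while the Top1 shRNA arrays read 8.53, 7.75 and 8.56. Mki67 read 8.68, 6.24 and 5.90 with Top2b shRNA, 7.90, 6.66 and 8.30 with Top1 shRNA and 5.16, 6.38 and 6.05 with control. For Top2b shRNA 0 of 42 members passed in limma, beside 1.99% of all genes higher and 1.12% lower. An unadjusted p under 0.05 was found for 9 members, beside 2348 of all 13308 genes. Of the members 37 were positive, with a median of 0.62. Nes came nearest, at 8.05, 7.27 and 7.20 against 6.86, 6.53 and 6.22, above control on all 3 arrays (0.97 ± 0.30, adjusted p = 0.121).

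How many members passed depended on array 1 and on the block. The shares of all genes given for the shRNA comparisons belong to the main fits, and none is given for the other settings. The member counts in those other settings therefore cannot be set against a share of all genes. With the array number as a block Top1 shRNA gave 23 higher and 1 lower, the lower being Hes5 (-0.75 ± 0.23, adjusted p = 0.0462), and Top2b shRNA gave 1, Nes (0.97 ± 0.18, adjusted p = 0.0179). Without the 3 arrays numbered 1 there were 27 higher and 1 lower for Top1 shRNA, among them Gtse1 (1.83 ± 0.18), Aurka (1.31 ± 0.19) and Cdt1 (1.09 ± 0.15), with Hes5 at -0.86 ± 0.17. In that setting 6 rose for Top2b shRNA: Gtse1 (1.16 ± 0.18), Nes (0.86 ± 0.17), Sox2 (0.75 ± 0.19), Hes1 (0.68 ± 0.16), Pax6 (0.67 ± 0.13) and Mcm2 (0.53 ± 0.14). Leaving out single arrays moved the Top1 shRNA count from 8 to 1 without control 2 or control 3, to 4, 3 and 2 without Top1 shRNA 1, 2 and 3, and to 24 without Top2b shRNA 1, through the shared estimate of spread; E2f8 passed each time. Between the shRNAs directly 0 of 42 members passed by limma, as did 0% of all genes either higher or lower. An unadjusted p under 0.05 was found for 3 members, beside 806 of all 13308 genes. Between the shRNAs E2f8 differed by 1.48 ± 0.43 (adjusted p = 0.705). Without the arrays numbered 1 that difference passed for 17 members, all higher with Top1 shRNA, such as Nusap1 (1.61 ± 0.29) and E2f8 (2.04 ± 0.38).

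Neighbouring genes and other cell types moved with the members. With Top1 shRNA 7 of 46 other mitosis genes rose and 0 fell, led by Ect2 (2.28 ± 0.41) and Anln (1.92 ± 0.41), both of the cleavage furrow, and 4 of 28 other progenitor genes rose, Tnc (2.31 ± 0.21), Gli3 (1.79 ± 0.26), Notch1 (1.68 ± 0.37) and Notch2 (1.44 ± 0.32). Tnc (1.51 ± 0.21) and Gli3 (1.15 ± 0.26) rose with Top2b shRNA as well, in arrays that share the controls. Fibroblast and meninges markers rose for 5 of 7 with Top1 shRNA and 4 of 7 with Top2b shRNA, with sums of 5248 to 8020 and 4066 to 5332 against 1452 to 2246. Neuron markers fell for 5 of 12 with Top1 shRNA, with sums of 9401 to 14079 against 20525 to 21021, and none passed with Top2b shRNA (12141 to 16757). Astrocyte sums ran from 2427 to 4696 and from 2768 to 12085 against 3224 to 3644. The part of these cells in the members' differences was not tested.

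In the dose series most members showed a step between arrays, and 0 of 31 members passed a trend over all doses. Mki67 read 9.54, 9.67 and 5.84 on the 3 vehicle arrays, then 6.03 at 3 nM, 5.58 at 30 nM, 5.64 at 150 nM, 5.80 and 5.72 at 300 nM, 5.96 at 500 nM and 8.03 at 1000 nM. Vehicle 3 thus lay with the low arrays and the 1000 nM array between them and the other vehicles. Ccna2 followed the same course at 9.98, 9.87 and 6.77 on vehicle, 6.60 to 6.91 from 3 to 500 nM and 8.55 at 1000 nM. Prc1 read 8.64, 8.84 and 5.16 on vehicle, 5.46 to 5.72 from 3 to 500 nM and 7.28 at 1000 nM. Against vehicle 3 the median member stood 1.73 higher on vehicle 1, 1.86 higher on vehicle 2 and 1.16 higher at 1000 nM, and between -0.02 and 0.10 on the other 6 arrays. By more than 1 log2 unit 26, 26 and 18 of the 31 members lay above vehicle 3 on those 3 arrays, where 6.52, 7.07 and 6.39% of all genes did.

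**Figure D4:**
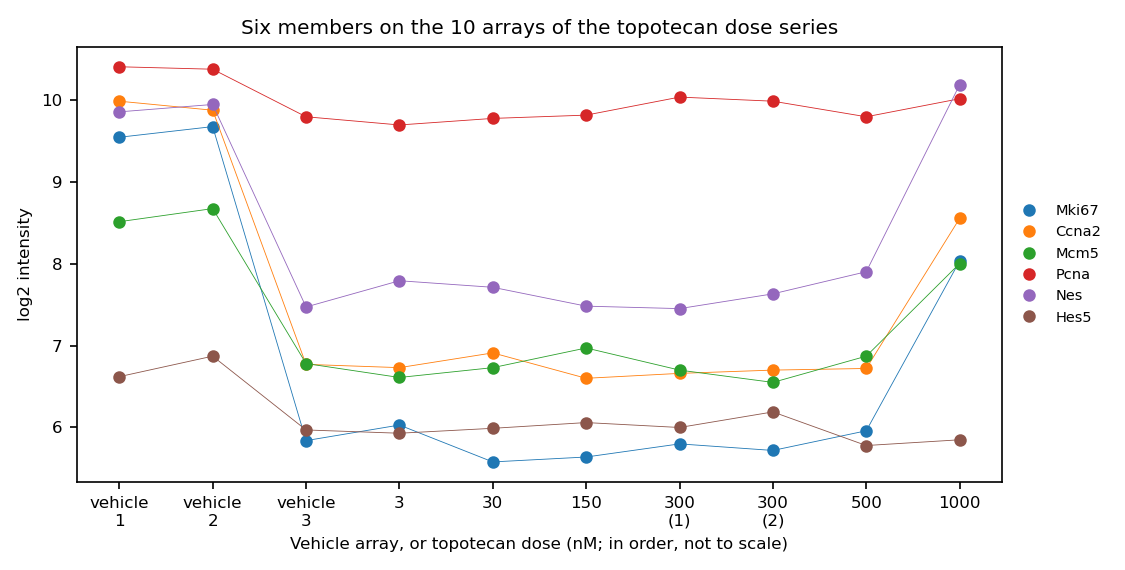
Log2 intensity (y axis) of Mki67, Ccna2, Mcm5, Pcna, Nes and Hes5 on the 10 arrays of the dose series, with 3 vehicle arrays and then doses in order along the x axis (not to scale; lines join arrays only to guide the eye). Vehicles 1 and 2 and the 1000 nM array lie above the rest for Mki67, Ccna2, Mcm5 and Nes, and at 1000 nM Hes5 does not.

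Some members left that pattern. Nes was highest of all at 1000 nM, 10.18 against 9.85 and 9.94 on vehicles 1 and 2 and 7.45 to 7.90 on the rest. Hes5 read 6.62 and 6.87 on vehicles 1 and 2 but 5.85 at 1000 nM, level with the 5.78 to 6.19 of the other treated arrays. Gtse1 (8.45 against 8.22 and 8.24) and Hes1 (7.58 against 7.24 and 7.42) also exceeded both vehicles at 1000 nM, which made 3 members above both and 27 below. Ccne1 was flat at 8.04 to 8.14 on all 10 arrays. Eomes, too dim for the test, ran the opposite way at 4.43, 4.73 and 4.56 on the 3 arrays with high division genes and 5.29 to 5.74 on the other 7.

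Fitted over dose rank from vehicle to 1000 nM, 0 of 31 members passed in limma, beside 1.51% of all genes rising and 1.95% falling. An unadjusted p under 0.05 was found for 1 member, beside 2160 of all 11292 genes. All 31 slopes were negative, with a median of -0.11 log2 per rank. For the 300 nM pair against vehicle 0 members passed in limma (0% of all genes either way) and their median was -1.23. There 1 member had an unadjusted p under 0.05, beside 1244 of all 11292 genes. With the array number as a block that pair gave 30 lower of 31, but vehicle 3 has no partner and only vehicles 1 and 2 entered. Vehicle 3, itself untreated, lay below both of them for 30 of the 31 members and for 45.4% of all genes. Without the 1000 nM array Hes1 passed the trend (-0.20 ± 0.04 per rank, adjusted p = 0.0234), and so it did without vehicles 1 and 2 and the 1000 nM array (-0.14 ± 0.03, adjusted p = 0.0297), when the median slope of the members was -0.003. Hes1 read 6.59 on vehicle 3, 6.94, 6.76 and 6.43 from 3 to 150 nM, 6.26 on both 300 nM arrays and 6.12 at 500 nM. At 1000 nM, the array left out of both these fits, it read 7.58, above every other array of the series. Astrocyte sums were 4668 to 15286 on vehicle, 7453 at 1000 nM and 3568 to 5531 elsewhere, and fibroblast sums 5902 to 7844, 10648 and 5302 to 6431. Neuron sums were 27891 to 34570, 26083 and 32042 to 33736, and the part of any of these was not tested.

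Single treated arrays carry no test, and a member is counted here when it differed from the vehicle mean by over 1.5-fold. After 24 h of topotecan 0 of 42 were higher and 3 lower, beside 4.63% and 5.28% of all genes: Bub1 at 4.37 against 5.03 and 5.10, Mki67 at 5.15 against 5.73 and 6.13, and Hes5 at 4.98 against 5.77 and 5.64. All 3 lay below both vehicles, and on the 24 h array Bub1 and Hes5 lay under the limit for dim genes (5.01). On the washout array, with the same vehicles, 1 was higher and 0 lower, beside 0.398% and 0.421% of all genes, namely Cdc20 at 5.95 against 5.06 and 5.57. There 38 of 42 members were positive with a median of 0.25 against -0.01 for all genes, and Mki67 read 6.43, Bub1 5.51 and Hes5 5.27, the first pair above both vehicles and Hes5 below both. The label gives no topotecan dose for these arrays. Leaving out vehicle 1 made the 24 h count 5, and leaving out vehicle 2 made the washout count 6.

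With DRB the members moved about as all genes did. Of 42 members 6 were higher and 15 lower, beside 12.2% and 37% of all genes, with a median of -0.38 against -0.34 for all genes. Nusap1 read 8.38 against 6.53 on vehicle, Gtse1 8.29 against 7.21, Cdc20 7.24 against 6.35, Mcm5 7.59 against 6.92, Cdt1 6.35 against 5.70 and Pcna 10.09 against 9.48. These are the 6 higher members, 3 of mitosis and 3 of replication. Nes read 5.33 against 7.33, Sox2 6.46 against 8.40, Cdk1 5.58 against 7.39, Mki67 5.89 against 7.43, Rrm2 6.26 against 7.77 and Kif11 5.27 against 6.75. Hes1 lay lower too, at 5.42 against 6.49, but Hes5 was near its vehicle at 6.31 against 6.47. The summed astrocyte markers read 842 against 4900 and the fibroblast markers 1233 against 2153, whereas neuron markers read 25565 against 26794; their part was not tested.

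With hydrogen peroxide all 42 members lay below the vehicle mean and 29 did so by over 1.5-fold (0 higher), beside 7.93% of all genes higher and 5% lower. Mki67 read 5.72 with hydrogen peroxide, 6.85 with paraquat and 8.91 and 7.22 on the shared vehicles. Cdk1 read 6.12, 7.34, and 8.96 and 7.38, and Ccna2 6.59, 7.43, and 8.91 and 7.54. The hydrogen peroxide array was below both vehicles for each of these genes, and the paraquat array lay beside vehicle 2. For paraquat 0 were higher and 23 lower, beside 13.7% and 7.15% of all genes. The shares of all genes for both oxidants are against the vehicle mean, and none is given against a single vehicle. Between the 2 vehicles 16.75% of all genes spanned over 1 log2 unit. Set against vehicle 2 alone the counts of lower members were 17 for hydrogen peroxide and 1 for paraquat, and against vehicle 1 alone 36 and 35. The vehicle arrays also differed in summed neuron markers, from 15199 to 27872, and in fibroblast markers, from 2897 to 7926, and the part of those cells was not tested.

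Hes5 passed as lower with topotecan at 300 nM on the 3′ arrays and at 1 µM, with ICRF-193 and with irinotecan, each against controls of its own. On the gene-level arrays it lay near the limit for dim genes. Its mean was 5.57 on the later type (limit 5.01), where its lowest reading with topotecan at 1 µM was 4.77. On the earlier type its mean was 6.13 (limit 6.02), and on the 3′ arrays 8.28 (limit 7.04). The calls with ICRF-193 and with topotecan at 1 µM held whichever array was left out. The call at 300 nM held in 3 of 6 such fits, and that with irinotecan in 1 of 5, being lost without irinotecan array 1 or 3 or either vehicle. In the dose series Hes5 did not pass at 300 nM (-0.40 ± 0.29, adjusted p = 0.47), where it read 6.00 and 6.19 against 6.62, 6.87 and 5.97 on vehicle, and with DRB it read 6.31 against 6.47. Nestin passed as higher with topotecan at 1 µM, irinotecan and Top1 shRNA, and differed by 0.21 ± 0.14 with topotecan at 300 nM (adjusted p = 0.447) and by 0.14 ± 0.06 with ICRF-193 (adjusted p = 0.151). Whether these effects differ between arrays of different types was not tested.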

How the data were processed

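Deposited values are RMA intensities on a linear scale (Affymetrix Expression Console and RMA, per the submitters' processing notes), although the plan assumed log2 values, so log2 of the deposited intensity was taken here. Groups follow the sample titles, since some description fields name another drug. Probe sets with 1 gene symbol were kept, symbols were updated through RefSeq, the brightest probe set by mean over the arrays of a type stood for a gene, and genes under the 40th percentile were left out of tests. Each experiment was fitted across all genes kept with limma 3.58.1 in R 4.3.3 (lmFit, eBayes), both shRNAs and their controls together, with Benjamini-Hochberg adjustment over all genes at 0.05. Single treated arrays were set against the vehicle mean at 1.5-fold, with no test. Arrays have no read depth; their number limits precision.

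All members are named, though not each in every comparison, and up to 4 genes per neighbouring list are named by size of change among those that passed. Members and lists were chosen with earlier results of these data known. On simulated data the fit recovered, of 100 genes changed by 1 log2 unit, 58 for topotecan at 300 nM and 100 for ICRF-193. It recovered 100 for topotecan at 1 µM, 82 for irinotecan and 22 for Top1 shRNA. At 3 units these counts were 97, 100, 100, 100 and 97. For the dose trend it recovered 94 of 100 genes at the smaller simulated size and 100 at the larger. There the size set a slope over dose rank, so these counts do not apply to changes of 1 or 3 log2 units.

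For ICRF-193 the deviations of treated and control arrays with the same number correlated at 0.38, 0.225 and 0.382, each best with its own number. For Top2b shRNA they correlated at 0.448, 0.385 and 0.35, though array 2 matched control 3 best. For Top1 shRNA they correlated at 0.318, 0.06 and 0.294, and array 1 alone matched its own number best. Each other comparison held at least 1 negative correlation. Alternatives tried were quantile normalization, the mean of probe sets, probe sets chosen in controls, no filter, a trended robust fit, a 1.5-fold minimum, log10 dose, the array number as a block, and each array left out.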

Additional observations from a re-analysis of the deposited data

Results flagged for a closer look

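With topotecan at 1 µM, where 6 arrays per group allow a test for a lone array, 6 of 84 groups of values held an array far from the other 5 by Dixon's criterion, and chance gives about 1 in 20. Array 4 of the treated group was low for Mki67 at 7.16 (the nearest array read 7.67), Mcm4 at 7.48 (7.81) and E2f8 at 5.93 (6.32). Vehicle array 4 was high for Bub1b at 6.24 (5.66) and Rrm2 at 8.53 (8.05), and vehicle array 2 was low for Cdt1 at 5.68 (5.87). Without treated array 4 there were 6 members higher and 11 lower, and without vehicle array 4 there were 8 higher and 11 lower. The cause was not tested.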

How the results depend on the processing

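No called member changed direction under any alternative. Of 39 calls of a member in a comparison, 16 held with every array left out in turn and 9 held under every alternative. Shares of all genes that passed were given for the main settings only, so the counts of members under alternatives stand without them. Leaving out single arrays gave 0 to 1 members for topotecan at 300 nM, 2 to 6 for ICRF-193, 12 to 19 for topotecan at 1 µM, 3 to 7 for irinotecan, 1 to 24 for Top1 shRNA, 0 for Top2b shRNA and for the direct shRNA comparison, 0 to 1 for the difference between topotecan and ICRF-193, 0 to 1 for the dose trend, 4 to 5 for topotecan 24 h, 1 to 6 for washout, 17 to 36 for hydrogen peroxide and 1 to 35 for paraquat. Quantile normalization gave 17 for Top1 shRNA, 1 for Top2b shRNA and 2 for washout. With no filter, where dim genes were fitted and tested too, the counts were 2 for ICRF-193, 2 for irinotecan and 2 for Top1 shRNA. A 1.5-fold minimum left 1 for ICRF-193, 5 for topotecan at 1 µM and 2 for irinotecan. The alternatives chosen after seeing the data gave 28, 6 and 17 members for Top1 shRNA, Top2b shRNA and their difference without the arrays numbered 1, and 1 for the dose trend without vehicles 1 and 2 and the 1000 nM array. Where no cause is given, it was not tested.

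With the array number as a block, topotecan at 300 nM gave 0 members, irinotecan 4, Top1 shRNA 24 and Top2b shRNA 1. In that setting ICRF-193 gave 5 and topotecan at 1 µM 12. The direct shRNA comparison and the difference between topotecan and ICRF-193 gave 0 each. For 300 nM against vehicle in the dose series the block gave 30, with only vehicles 1 and 2 entering. Vehicle 3 also lay below both of those for 30 of 31 members.

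Limits: with 3 arrays against 3, effects of 1 log2 unit were often missed for Top1 shRNA and topotecan at 300 nM. On the 3′ arrays 16 members were too dim to test. Except for the arrays titled 24 h, the labels do not say whether an array was taken at 24 or 72 h.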
